A study of Mus musculus with 8 samples.

Results

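The interleukin-1 receptor cluster is a run of 6 neighbouring genes on mouse chromosome 1: Il1r2, Il1r1, Il1rl2, Il1rl1, Il18r1 and Il18rap. Its members were chosen by gene symbol, and they are 6 of 21887 protein-coding genes on the autosomes, X and Y, all of them among the 14589 with enough called signal to be tested. Earlier results of these data had already named Il18r1 in the comparison of PAM3 with untreated cells. The members' values in that comparison are therefore given as a description without a test. So are those in the 2 other comparisons of single groups that share a group with it. The average effect of 25HC was tested, although it also uses these libraries. The cells were bone-marrow-derived macrophages of C57BL/6 mice, and acetylated histone H4 was mapped by ChIP-seq with an acetyl-H4 antibody. The 4 groups were 25HC then PAM3 (25-hydroxycholesterol followed by PAM3CSK4), PAM3 alone, 25HC alone, and untreated, each with a library of mouse A and a library of mouse B. All groups share strain, cell type and antibody. The labelled stimulation time, which carries no unit, is 18 in every library with PAM3 and 0 in every library without it, so an effect of PAM3 and one of that time cannot be told apart.

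The receptors of the interleukin-1 family are membrane proteins with an immunoglobulin-type outer part, and most carry an inner TIR domain that recruits the adaptor MyD88, the same adaptor that Toll-like receptors use. IL1R1 carries the IL-1 signal, while IL1R2 lacks the TIR domain and acts as a decoy. IL1RL2 binds the IL-36 cytokines, IL1RL1 (also called ST2) binds IL-33, and IL18R1 and IL18RAP form the receptor for IL-18. Macrophages express several of them, and ST2 and the IL-18 receptor are best known from mast cells and from T, NK and innate lymphoid cells. PAM3CSK4 is a synthetic bacterial lipopeptide that activates Toll-like receptor 2 with Toll-like receptor 1, and 25-hydroxycholesterol is an oxysterol that activated macrophages make. Acetylated histone H4 marks active promoters and enhancers.

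The measure was called length, the number of bp of the authors' deposited peaks of a library within a gene body and 5 kb on either side. It says how much of a locus was called as acetylated, not how strongly, and with bulk cells a peak lost in part of the cells cannot be told apart from less acetylation in every cell. The libraries held 48446 to 54552 peaks with a median length of 1028 to 1227 bp. The peaks covered 63.5 and 69.6 Mb in 25HC then PAM3, 56.6 and 72.4 Mb in PAM3, 59.9 and 64.6 Mb in 25HC, and 68.4 and 65.4 Mb in untreated cells. All 8 macrophage markers examined, among them Csf1r, Adgre1 and Spi1, had called length in all 8 libraries, with sums over the list of 60392 to 91515 bp.

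The cluster spans chr1:40079692-40556707 on GRCm38 with the 5 kb margins. The whole span had 27040 and 35105 called bp in 25HC then PAM3, 8746 and 15551 bp in PAM3, 32871 and 35283 bp in 25HC, and 39381 and 36235 bp in untreated cells. The PAM3 libraries were the lowest of the 8 and the untreated libraries the highest, and 25HC then PAM3 overlapped 25HC. Per 1000000 called bp of the library, the span took 426 and 504 bp in 25HC then PAM3, 154 and 215 bp in PAM3, 549 and 546 bp in 25HC, and 575 and 554 bp in untreated cells. PAM3 mouse A covered the least of the genome and PAM3 mouse B the most, and both were low here.

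The 2 ends of the cluster differed from each other. Over Il1r2 and Il1r1, called length was 13430 and 16131 bp in 25HC then PAM3, 5691 and 10600 bp in PAM3, 10177 and 12650 bp in 25HC, and 12783 and 11358 bp in untreated cells. From Il1rl2 to Il18rap it was 13610 and 18974 bp in 25HC then PAM3, 3055 and 4951 bp in PAM3, 22694 and 22633 bp in 25HC, and 26598 and 24877 bp in untreated cells. At the Il1r2 and Il1r1 end, both libraries of 25HC then PAM3 lay above all others. At the other end they lay between the PAM3 libraries and those without PAM3. Single genes did not all follow the sum of their end. In Il1rl2, 25HC then PAM3 lay above all others, and in Il1r2 it overlapped 25HC and untreated cells.

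**Figure D1:**
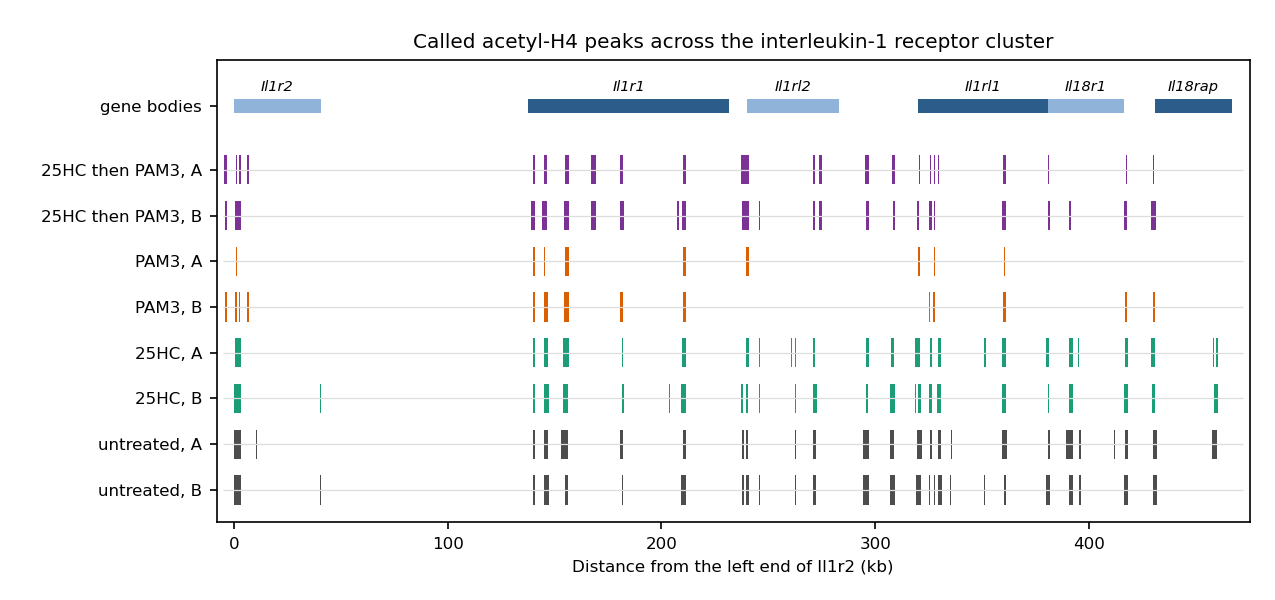
Peaks of the 8 libraries along the cluster, by distance in kb from the left end of Il1r2; each row is 1 library, each block a deposited peak, and the gene bodies are drawn with their names. The 2 PAM3 rows hold 10 and 14 peaks, against 24 and 24 in 25HC then PAM3, 26 and 26 in 25HC, and 25 and 26 in untreated cells.

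Il1r1 encodes the receptor chain that carries the IL-1 signal. Its window (chr1:40222480-40316201 for the gene body) had 9622 and 12616 called bp in 25HC then PAM3, 4832 and 7222 bp in PAM3, 7235 and 8835 bp in 25HC, and 9060 and 7559 bp in untreated cells. 25HC then PAM3 lay above every other library and PAM3 below every other one. Group means were 11119 ± 2117 bp in 25HC then PAM3, 6027 ± 1690 bp in PAM3, 8035 ± 1131 bp in 25HC and 8310 ± 1061 bp in untreated cells (SD, n = 2 each). The stretch around its first listed start, chr1:40224830-40225129, was called over 300 of 300 bp in all 8 libraries.

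A region inside the Il1r1 body, chr1:40251727-40253879, held a peak only in 25HC then PAM3. It was called over 2106 and 2153 bp there, and over 0 bp in both PAM3, both 25HC and both untreated libraries. Genome-wide, 2.3% of merged regions were called in both libraries of 25HC then PAM3 and in no other. A second region with a listed Il1r1 start, chr1:40265149-40266999, was called over 1740 and 1742 bp in 25HC then PAM3, 321 and 1473 bp in PAM3, 457 and 856 bp in 25HC, and 1614 and 619 bp in untreated cells.

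Il1r2 encodes the decoy receptor. Its window (gene body chr1:40084692-40125230) had 3808 and 3515 called bp in 25HC then PAM3, 859 and 3378 bp in PAM3, 2942 and 3815 bp in 25HC, and 3723 and 3799 bp in untreated cells. PAM3 mouse A stood alone at the low end, and PAM3 mouse B lay above 25HC mouse A. Like the first Il1r1 start, the stretch around its listed start (chr1:40085843-40086142, plus strand) was called over 300 of 300 bp in all 8 libraries. It is shown, from RefSeq on GRCm38.p6, as a start that was called in every library, with capitals for its 2 matches to the E-box CACGTG, the letters bound by MYC, USF and related factors.
Il1r2 start: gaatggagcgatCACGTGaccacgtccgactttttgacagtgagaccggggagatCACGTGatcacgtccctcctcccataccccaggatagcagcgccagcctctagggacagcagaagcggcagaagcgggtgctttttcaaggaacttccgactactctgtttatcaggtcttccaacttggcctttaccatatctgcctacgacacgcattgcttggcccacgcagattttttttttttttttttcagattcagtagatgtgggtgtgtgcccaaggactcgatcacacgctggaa
Of 32851 promoters of this length, 7.15% hold CACGTG and 0.594% hold it at least 2 times. The motif reads the same on both strands.

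What varied at Il1r2 lay outside the 300 bp around the listed start. The region over the start, chr1:40084681-40087998, was called over 1535 and 2569 bp in 25HC then PAM3, 859 and 1321 bp in PAM3, 2602 and 3198 bp in 25HC, and 3282 and 3267 bp in untreated cells. All 4 libraries with PAM3 were narrower here than the 4 without it. A region at −4450 bp from the listed start, chr1:40080138-40081643, was called over 1344 and 946 bp in 25HC then PAM3 and 0 and 1182 bp in PAM3, against 0 bp in all 4 libraries without PAM3. A smaller one within the gene, chr1:40090980-40091924, was called over 929 and 0 bp in 25HC then PAM3 and 0 and 875 bp in PAM3, and over 0 bp in the 4 libraries without PAM3. At the right end of the gene, chr1:40124809-40125619 was called over 0 bp in all 4 libraries with PAM3, against 340 and 617 bp in 25HC and 0 and 532 bp in untreated cells. A further region, chr1:40094989-40095429, was called in untreated mouse A alone, over 441 bp. The totals of Il1r2 in 25HC then PAM3 thus held fewer bp over the start than those in untreated cells. They held bp in regions that untreated cells lacked, and lacked these last 2 regions.

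Il1rl2 encodes the receptor for the IL-36 cytokines. Its window (gene body chr1:40324589-40367555) had 5497 and 5982 called bp in 25HC then PAM3, 1203 and 0 bp in PAM3, 3342 and 3584 bp in 25HC, and 3691 and 3997 bp in untreated cells. The 4 groups did not overlap, with 25HC then PAM3 highest and PAM3 lowest. Means were 5740 ± 343 bp in 25HC then PAM3, 602 ± 851 bp in PAM3, 3463 ± 171 bp in 25HC and 3844 ± 216 bp in untreated cells (SD, n = 2 each).

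Part of the called length of Il1rl2 lay over its start, where PAM3 mouse A was slightly above 25HC mouse A. The region chr1:40322104-40325519 was called over 3350 and 3318 bp in 25HC then PAM3, 1203 and 0 bp in PAM3, 1149 and 1438 bp in 25HC, and 2098 and 1955 bp in untreated cells. Further in, chr1:40355589-40357273 was called over 746 and 898 bp in 25HC then PAM3, 0 and 0 bp in PAM3, 841 and 1565 bp in 25HC, and 1237 and 1311 bp in untreated cells. Its neighbour chr1:40358325-40359725 was called over 1401 and 1313 bp in 25HC then PAM3, and over 0 bp in all 6 other libraries. With the Il1r1 region above, it was 1 of 2 regions of the cluster called in both libraries of 25HC then PAM3 and in no other.

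**Figure D2:**
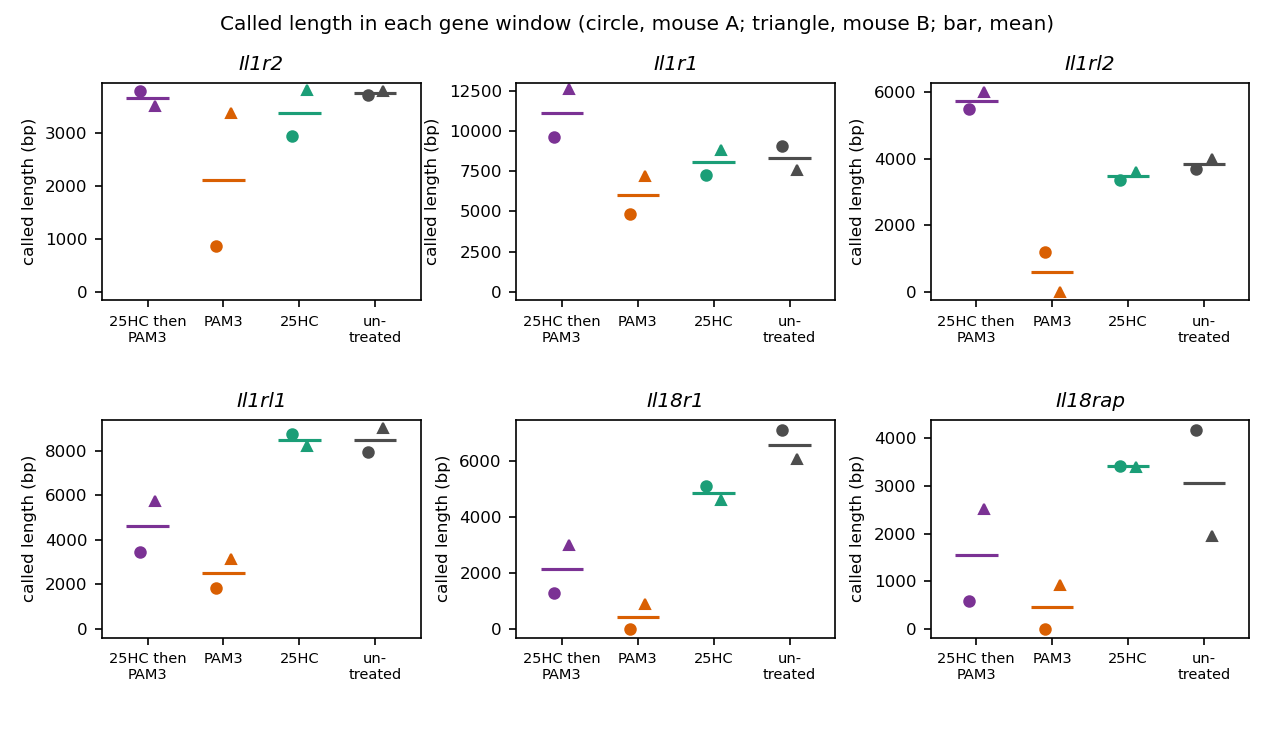
Called length (bp) of the 6 members, 1 panel each; points are single libraries of mouse A and mouse B and bars are the means of 2 libraries, from 25HC then PAM3 at the left to untreated at the right. Il1r1 and Il1rl2 are highest in 25HC then PAM3, and Il1rl1 and Il18r1 are highest in untreated cells and 25HC.

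Il1rl1 encodes ST2, the receptor for IL-33, in a membrane and a soluble form. Its window (gene body chr1:40404864-40465418) had 3465 and 5759 called bp in 25HC then PAM3, 1852 and 3146 bp in PAM3, 8724 and 8198 bp in 25HC, and 7950 and 9018 bp in untreated cells. All 4 libraries with PAM3 lay below the 4 without it, and the 25HC and untreated libraries overlapped. Means were 4612 ± 1622 bp in 25HC then PAM3, 2499 ± 915 bp in PAM3, 8461 ± 372 bp in 25HC and 8484 ± 755 bp in untreated cells (SD, n = 2 each).

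Neither of the listed Il1rl1 starts, chr1:40429320-40429619 and chr1:40439379-40439678, overlapped a peak in any of the 8 libraries. Both listed starts lie inside the gene body. Its left end, the upstream end on the plus strand, has no listed start. The called length lay at that left end and further within the body. At the left end, chr1:40403415-40406336 was called over 418 and 756 bp in 25HC then PAM3, 971 and 0 bp in PAM3, 2156 and 1827 bp in 25HC, and 2031 and 2621 bp in untreated cells. The region chr1:40413525-40415852 was called over 312 and 322 bp in 25HC then PAM3, 0 and 0 bp in PAM3, 1621 and 2055 bp in 25HC, and 1668 and 1932 bp in untreated cells. In both, every library with PAM3 was lower than every library without it. Between these 2 regions, chr1:40411653-40412837 went the other way, with every library with PAM3 above every library without it. It was called over 622 and 534 bp in 25HC then PAM3, 539 and 1180 bp in PAM3, 0 and 0 bp in 25HC, and 0 and 489 bp in untreated cells. One region of Il1rl1, chr1:40443813-40446146, was called in all 8 libraries, at 1358 and 1989 bp in 25HC then PAM3, 342 and 1157 bp in PAM3, 1897 and 2171 bp in 25HC, and 2307 and 891 bp in untreated cells.

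Between Il1rl2 and Il1rl1, outside every member's window, lay 2 more regions that were called in both libraries of every group but PAM3. The first, chr1:40379046-40381925, was called over 1765 and 1519 bp in 25HC then PAM3, 0 and 0 bp in PAM3, 1606 and 1169 bp in 25HC, and 2689 and 2860 bp in untreated cells. The second, chr1:40391505-40393985, was called over 1277 and 906 bp in 25HC then PAM3, 0 and 0 bp in PAM3, 1570 and 2262 bp in 25HC, and 1803 and 2474 bp in untreated cells. These bp are in none of the members' totals.

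Il18r1 encodes the chain of the IL-18 receptor that binds the cytokine. Its window (gene body chr1:40465552-40500854) had 1308 and 3008 called bp in 25HC then PAM3, 0 and 883 bp in PAM3, 5126 and 4614 bp in 25HC, and 7125 and 6073 bp in untreated cells. The 4 groups did not overlap, with PAM3 lowest and untreated cells highest. Means were 2158 ± 1202 bp in 25HC then PAM3, 442 ± 624 bp in PAM3, 4870 ± 362 bp in 25HC and 6599 ± 744 bp in untreated cells (SD, n = 2 each).

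The end of Il1rl1 and the start of Il18r1 share 1 region, chr1:40464735-40466252, the only merged region in more than 1 member's window. It was called over 287 and 728 bp in 25HC then PAM3, 0 and 0 bp in PAM3, 1104 and 599 bp in 25HC, and 839 and 1488 bp in untreated cells. It holds the listed Il18r1 starts. The stretch chr1:40465371-40465670 (plus strand, RefSeq on GRCm38.p6) around the middle one is shown because it had no called bp in either PAM3 library: 238 and 182 of 300 bp were called in 25HC then PAM3, 0 and 0 bp in PAM3, 300 and 225 bp in 25HC, and 257 and 300 bp in untreated cells. Capitals mark the 182 bases that lie in a peak in all 6 libraries with one.
Il18r1 start: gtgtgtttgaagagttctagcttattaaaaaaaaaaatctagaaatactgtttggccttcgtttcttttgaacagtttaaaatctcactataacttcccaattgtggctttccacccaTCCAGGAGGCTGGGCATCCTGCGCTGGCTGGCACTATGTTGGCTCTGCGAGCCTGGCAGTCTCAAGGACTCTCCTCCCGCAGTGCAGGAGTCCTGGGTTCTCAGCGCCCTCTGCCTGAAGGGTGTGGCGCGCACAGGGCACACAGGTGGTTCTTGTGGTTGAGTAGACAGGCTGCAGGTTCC
Deeper in the gene the regions differed in 25HC then PAM3. The region chr1:40474085-40477251 was called over 213 and 1026 bp in 25HC then PAM3, 0 and 0 bp in PAM3, 1948 and 1810 bp in 25HC, and 3131 and 1869 bp in untreated cells. The region chr1:40479679-40480769 was called over 0 bp in all 4 libraries with PAM3, against 425 and 405 bp in 25HC and 985 and 964 bp in untreated cells. A further one, chr1:40496340-40496704, was called in untreated mouse A alone, over 365 bp.

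Il18rap encodes the second, signalling chain of the IL-18 receptor. Its window (gene body chr1:40515362-40551707) had 585 and 2528 called bp in 25HC then PAM3, 0 and 922 bp in PAM3, 3430 and 3405 bp in 25HC, and 4179 and 1943 bp in untreated cells. The untreated libraries lay on either side of 25HC then PAM3 mouse B, and the PAM3 libraries overlapped 25HC then PAM3. The region over its start, chr1:40513585-40516537, was called over 585 and 2528 bp in 25HC then PAM3, 0 and 922 bp in PAM3, 1769 and 1178 bp in 25HC, and 1966 and 1943 bp in untreated cells.

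The stretch around the listed Il18rap start (chr1:40515112-40515411, plus strand, RefSeq on GRCm38.p6) is shown because it was uncalled in 1 PAM3 library only. It was called over 99 and 300 of 300 bp in 25HC then PAM3, 0 and 300 bp in PAM3, 300 and 300 bp in 25HC, and 300 and 300 bp in untreated cells. Capitals mark its match to GAGGAAGT, the core bound by PU.1, the factor that sets up macrophage enhancers.
Il18rap start: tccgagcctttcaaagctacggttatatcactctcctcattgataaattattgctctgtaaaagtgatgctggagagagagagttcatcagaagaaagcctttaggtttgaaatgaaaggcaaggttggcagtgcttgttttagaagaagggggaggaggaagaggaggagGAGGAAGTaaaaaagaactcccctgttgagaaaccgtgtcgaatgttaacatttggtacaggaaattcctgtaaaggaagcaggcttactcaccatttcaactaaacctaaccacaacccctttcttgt
Counting both strands, GAGGAAGT is in 3.20% of promoters of this length and in no other listed start of the 6 genes. None of their listed starts holds TGANTCA, the letters of AP-1, which 7.81% of promoters hold. A second Il18rap region, chr1:40542229-40545183, was called over 0 bp in all 4 libraries with PAM3, against 1661 and 2227 bp in 25HC and 2213 and 0 bp in untreated cells.

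Joined over the 8 libraries, the peaks of the cluster made 35 regions, of which 7 (20%) were called in all 8, against 29.8% of regions genome-wide. Of those 7, 6 were among the 13 regions of Il1r2 and Il1r1, and 1 was among the 22 from Il1rl2 to Il18rap. Both libraries called 22 regions in 25HC then PAM3, 8 in PAM3, 23 in 25HC and 21 in untreated cells. Of the 21 called in both untreated libraries, 9 (42.9%) were called in neither PAM3 library, against 10.6% genome-wide. All 9 lay between Il1rl2 and Il18r1. Since the comparison of PAM3 with untreated cells is the one in which Il18r1 was named, nothing is read from that share.

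Of those 9 regions, 6 (66.7%) were called in both libraries of 25HC then PAM3, against 14.8% of such regions genome-wide. In all 6, both libraries of 25HC then PAM3 had fewer called bp than both untreated libraries. These 9 regions were picked by their absence in PAM3. With peaks of deposited −log10 q of at least 5, 0 of 3 such regions were called in both libraries of 25HC then PAM3. Whether the deposited −log10 q-values belong to their peaks was not checked, and the deposited fold ratios followed their peaks poorly. Results under this threshold, here and below, carry that limit. Of the 23 regions called in both 25HC libraries, 4 (17.4%) were called in neither library of 25HC then PAM3, against 10.9% genome-wide. They were 1 region each in Il1r2, Il1rl2, Il18r1 and Il18rap. A further 5 of the 35 regions were called only in libraries with PAM3, against 22.8% of regions genome-wide.

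**Figure D3:**
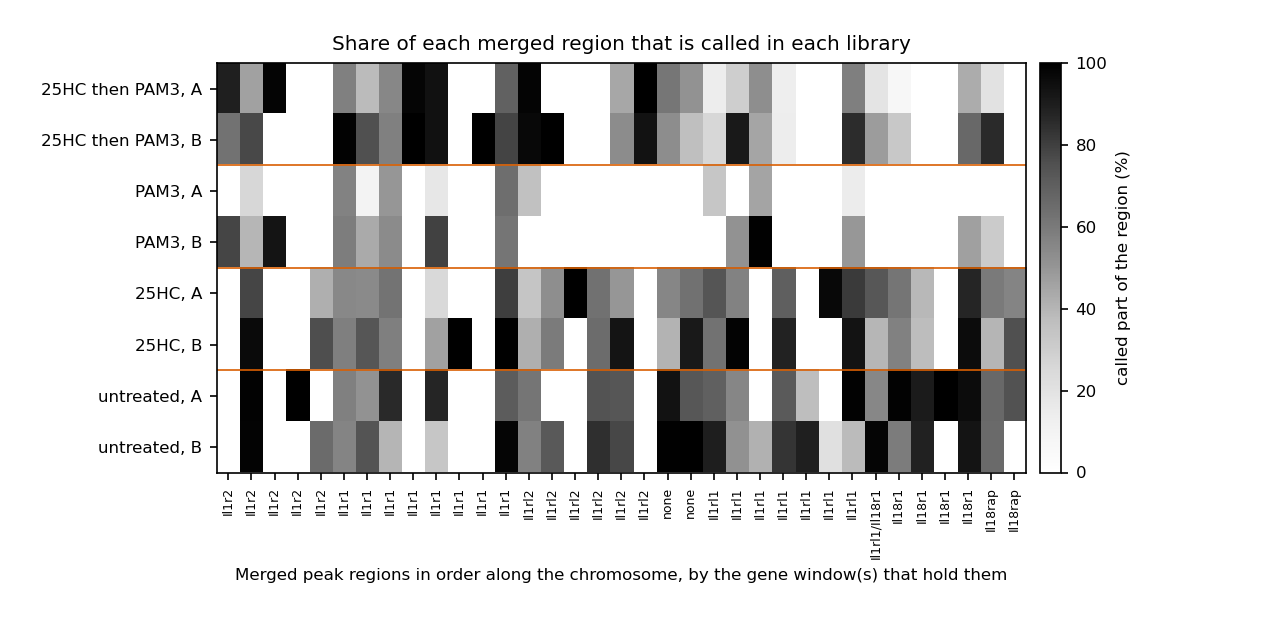
Share (%) of each of the 35 merged regions that was called in each library; columns are regions in order along the chromosome, named by the gene window that holds them, rows are the 8 libraries, and white cells are 0. The 2 PAM3 rows are mostly white from Il1rl2 onwards, where the 25HC then PAM3 rows are both filled in 14 of 22 regions.

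In PAM3 against untreated cells, called length was lower in both PAM3 libraries than in both untreated ones for 6 of 6 members, a pattern shown by 30.2% of all genes tested, and 0 members were higher in both, against 17% of genes. Log2 differences, taken after adding 500 bp to each called length and centring each library on its median, were −0.41 for Il1r1, −0.85 for Il1r2, −2.19 for Il1rl2, −1.57 for Il1rl1, −3.04 for Il18r1 and −1.96 for Il18rap. Their median was −1.76, beside −0.01 over all genes tested. Il18r1 was the most extreme, with 0.0411% of genes lower, and Il1rl2 came next with 0.459%. Il1r1 was the least, with 16.4% of genes lower. Where a library is at 0, as PAM3 mouse A is for Il18r1 and Il18rap and PAM3 mouse B for Il1rl2, the added 500 bp helps set the size of these values. The 2 PAM3 libraries gave unlike sizes. Without PAM3 mouse A the differences were −0.25 for Il1r1, −0.20 for Il1r2, −3.18 for Il1rl2 and −1.31 for Il18rap, and without PAM3 mouse B they were −0.56, −1.49, −1.20 and −2.60 for the same genes. With peaks of deposited −log10 q of at least 5, the difference was above 0 for Il1r1 (1.55), Il1r2 (0.89) and Il18rap (0.99).

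In 25HC against untreated cells the members' median difference was near that of all genes tested. Log2 differences were 0.02 for Il1r1, −0.08 for Il1r2, −0.07 for Il1rl2, 0.06 for Il1rl1, −0.34 for Il18r1 and 0.27 for Il18rap, with a median of −0.03 beside 0.01 over all genes. The libraries did not overlap for Il1rl2 and Il18r1, both lower in 25HC, as 27.8% of genes tested were. No member was higher in both 25HC libraries, against 9.97% of genes. With peaks of deposited −log10 q of at least 5, the differences were 2.69 for Il18rap, 1.52 for Il1r2 and 1.01 for Il1r1. Under that threshold they were −0.78 for Il18r1, −0.90 for Il1rl2 and −2.55 for Il1rl1.

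In 25HC then PAM3 against PAM3, 5 of 6 members were higher in both libraries, a pattern shown by 21.3% of genes tested, and Il18rap overlapped. Log2 differences were 0.84 for Il1r1, 0.85 for Il1r2, 2.75 for Il1rl2, 0.76 for Il1rl1, 1.59 for Il18r1 and 1.10 for Il18rap. Their median was 0.97 beside 0.01 over all genes. For Il1rl2, 99.9% of genes had a smaller difference. Without PAM3 mouse A the differences were 0.20 for Il1r2, 3.74 for Il1rl2 and 0.96 for Il18r1, and without PAM3 mouse B they were 1.497 for Il1r2, 1.76 for Il1rl2 and 2.22 for Il18r1. For Il18rap and Il1rl1 they were 1.79 and 1.05 without 25HC then PAM3 mouse A, and 0.40 and 0.47 without mouse B of that group. With peaks of deposited −log10 q of at least 5, the difference was below 0 for Il1r1 (−0.27), Il1rl1 (−0.30), Il18r1 (−0.42) and Il18rap (−0.77). This comparison and that of PAM3 with untreated cells share the 2 PAM3 libraries, so their signs are not independent.

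The comparison of 25HC then PAM3 with 25HC shares no library with the one that named Il18r1 and was tested. By limma over 14589 genes, 5.02% were called at adjusted p under 0.05, and of the 6 members 0 rose, against 2.73% of genes, and 0 fell, against 2.3%. At unadjusted p under 0.05 the share was 21.4% of genes, and it was 1 of 6 members. The members did not all have the same sign, and with 0 of 6 called no direction along the cluster is read from the following counts. Both libraries of 25HC then PAM3 were above both 25HC libraries for Il1r1 and Il1rl2, as for 28.2% of genes, and below them for Il1rl1, Il18r1 and Il18rap, as for 25.3%. Within both mice, Il1r1 and Il1rl2 were also lower in PAM3 than in untreated cells, and 6.94% of genes were likewise above 25HC in 25HC then PAM3 and below untreated cells in PAM3 in both mice.

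The smallest p was that of Il1rl1, with a log2 difference of −0.87 ± 0.24 (SE) and a limma adjusted p of 0.105. Il18r1 had −1.12 ± 0.46 (limma adjusted p = 0.247) and Il18rap −1.14 ± 0.63 (limma adjusted p = 0.387). Il1r1 had 0.41 ± 0.18 (limma adjusted p = 0.256), Il1rl2 0.63 ± 0.59 (limma adjusted p = 0.627) and Il1r2 0.09 ± 0.40 (limma adjusted p = 0.957). The spread behind these SE is estimated over all 8 libraries, and for Il1rl2 that includes the PAM3 libraries at 1203 and 0 bp. At the same difference of 0.63, its limma adjusted p was 0.0352 without PAM3 mouse A and 0.0341 without PAM3 mouse B, and 0.0706 with the 4 libraries of the comparison alone. Without 25HC then PAM3 mouse A, the differences were −0.68 for Il18r1 and −0.44 for Il18rap, and without mouse B of that group −1.55 and −1.83.

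The average effect of 25HC, the 4 libraries with it against the 4 without it, was tested as well. Those 4 without it are the untreated and PAM3 libraries of the comparison that named Il18r1, in equal weight. The low PAM3 values therefore enter this test. By limma 0.0685% of all genes were called, and of the 6 members 0 rose, against 0.0137% of genes, and 0 fell, against 0.0548%. At unadjusted p under 0.05 the share was 11.4% of genes, and it was 2 of 6 members. All 6 differences were above 0: 0.43 ± 0.13 (SE) for Il1r1, 0.38 ± 0.28 for Il1r2, 1.34 ± 0.42 for Il1rl2, 0.41 ± 0.17 for Il1rl1, 0.63 ± 0.33 for Il18r1 and 0.69 ± 0.44 for Il18rap. Their median was 0.53, beside 0.01 over all genes tested. This average joins 2 unlike comparisons. The members' median was −0.03 in 25HC against untreated cells and 0.97 in 25HC then PAM3 against PAM3. Limma adjusted p values ran from 0.275 for Il1r1 and 0.304 for Il1rl2 to 0.690 for Il1r2. For Il1rl2 the value was 1.83 (limma adjusted p = 0.0106) without PAM3 mouse A, which leaves PAM3 with the library at 0 bp, and 0.84 (limma adjusted p = 0.0564) without PAM3 mouse B. Without PAM3 mouse A the values were 0.06 for Il1r2, 0.31 for Il18r1 and 0.36 for Il18rap, and without PAM3 mouse B they were 0.71, 0.94 and 1.01 for the same genes. Without 25HC then PAM3 mouse B they were 0.27 for Il1rl1, 0.41 for Il18r1 and 0.34 for Il18rap, and without mouse A of that group 0.55, 0.84 and 1.03. Without untreated mouse B the value for Il18rap was 0.46.

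**Figure D4:**
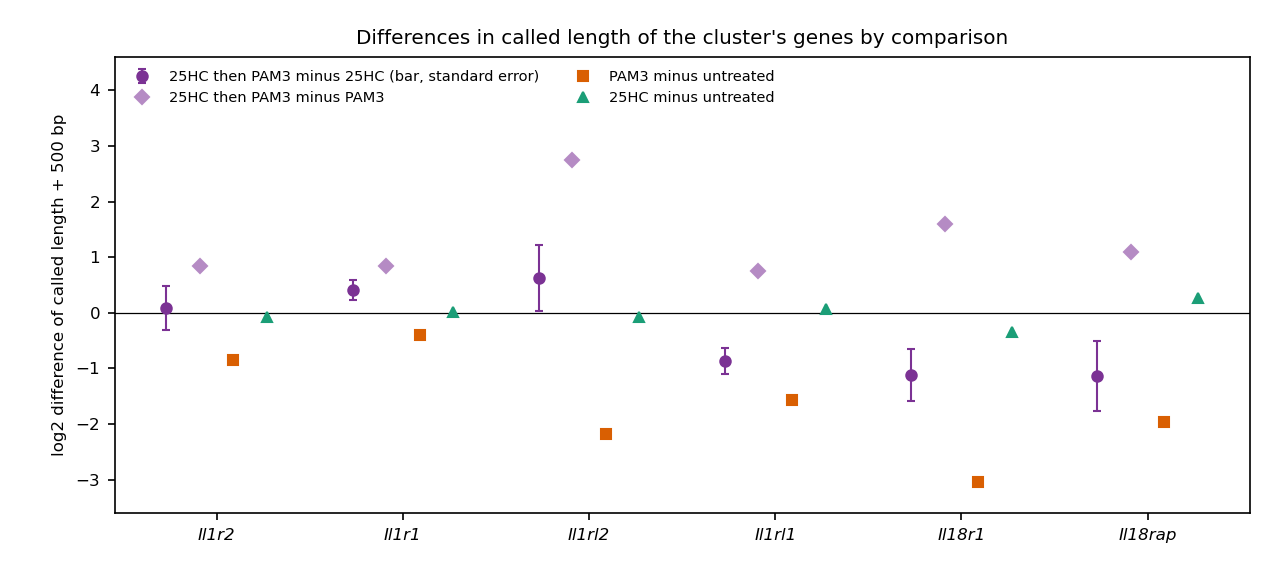
Log2 differences in called length of the 6 members for 4 comparisons, in order along the chromosome; error bars are SE and are drawn for the tested comparison of 25HC then PAM3 with 25HC. That comparison lies above 0 for Il1r2, Il1r1 and Il1rl2 and below 0 for Il1rl1, Il18r1 and Il18rap.

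Over the 8 libraries, called lengths of Il1rl1, Il18r1 and Il18rap moved together. As a description over 8 points, Pearson's r of the log2 values was 0.977 between Il18r1 and Il1rl1, whose windows share 9867 bp, 0.943 between Il18rap and Il18r1, whose windows do not overlap, and 0.923 between Il18rap and Il1rl1. It was 0.716 between Il1r1 and Il1r2, and 0.363 between Il1rl2 and Il1r2. Il1rl2 had r of 0.558 with Il1rl1, 0.551 with Il18r1 and 0.432 with Il18rap. Il1r2, at the left end, had r of 0.749 with Il18r1, 0.693 with Il18rap and 0.653 with Il1rl1. The genes most like each member, by r over the 8 libraries among 13996 genes, were Dkk2 (0.995) for Il18r1, Adrb1 (0.983) for Il1rl1, Rnf2 (0.983) for Il18rap, Rnf182 (0.985) for Il1rl2, Adnp2 (0.969) for Il1r1 and Tmed6 (0.989) for Il1r2. Each is the highest r of that search, so nothing is read from its height. Tmed6 had 0 bp in PAM3 mouse A and 972 to 1174 bp in the other libraries. Rnf182 had 214 and 0 bp in PAM3 and 503 to 779 bp in the other groups.

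The ligands, other receptor chains, signalling proteins and processing enzymes of the family made a list of 31 further genes, 26 of them tested. In 25HC then PAM3 against 25HC, 2 of the 26 rose, against 2.73% of genes, and 0 fell by limma, and 7 had an unadjusted p under 0.05, against 21.4% of genes. The list had a median log2 difference of 0.30, beside −0.02 over all genes. Pycard, which encodes the inflammasome adaptor ASC, had 2178 and 2078 called bp in 25HC then PAM3, 1954 and 2281 bp in PAM3, 0 and 0 bp in 25HC, and 1555 and 1656 bp in untreated cells (limma adjusted p = 0.00456). Only the 25HC libraries lacked its peak, and its window is not free of other genes. Il1f10, a ligand of the family, had 2305 and 2657 bp in 25HC then PAM3, 0 and 923 bp in PAM3, and 0 bp in all 4 other libraries (limma adjusted p = 0.0434). That call was lost with the mouse as a block (limma adjusted p = 0.0713) and without any 1 library of 25HC then PAM3, 25HC or untreated cells, and the window overlaps that of Il1f5. In the average effect of 25HC, 0 of the 26 rose or fell by limma, and 8 had an unadjusted p under 0.05, against 11.4% of genes.

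The genes on either side of the cluster gave 0 calls by limma among 9 tested, in both tested comparisons, against 5.02% and 0.0685% of genes. At unadjusted p under 0.05 there were 1 and 3, against 21.4% and 11.4% of genes. Map4k4, a kinase gene to the left, had 11632 and 13719 called bp in 25HC then PAM3, 9719 and 11665 bp in PAM3, 17367 and 17658 bp in 25HC, and 21314 and 18139 bp in untreated cells. It was lower in all 4 libraries with PAM3 than in the 4 without it, as Il1rl1 was. The share of all genes with that pattern was not counted. Slc9a4, a sodium and proton exchanger gene next to Il18rap, had 2104 and 1628 bp in 25HC then PAM3, 305 and 1304 bp in PAM3, 1455 and 1451 bp in 25HC, and 0 and 0 bp in untreated cells.

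Markers of cells known for ST2 and the IL-18 receptor were examined beside these results. Of 10 mast cell and basophil markers, 5 were at 0 in all 8 libraries (Cpa3, Fcer1a, Mcpt4, Mcpt8 and Tpsb2) and 2 were called in all 8 (Hdc and Gata2). The sum over the list was 6697 and 5941 bp in 25HC then PAM3, 6284 and 7814 bp in PAM3, 3502 and 4217 bp in 25HC, and 6816 and 5464 bp in untreated cells. Of 10 T, NK and innate lymphoid cell markers, 4 were at 0 in all 8 (Cd3e, Ncr1, Thy1 and Ifng) and 4 were called in all 8 (Cd3g, Il7r, Gata3 and Tbx21). That list summed to 8145 and 11197 bp in 25HC then PAM3, 5238 and 8790 bp in PAM3, 11054 and 14505 bp in 25HC, and 9721 and 12560 bp in untreated cells. Of 6 dendritic cell markers, 4 were called in all 8 libraries, with sums of 23032 and 18912 bp in 25HC then PAM3, 17971 and 22051 bp in PAM3, 22145 and 25906 bp in 25HC, and 27855 and 30022 bp in untreated cells. Of 8 neutrophil markers, 3 were at 0 in all 8 libraries (S100a9, Ly6g and Cxcr2) and 3 were called in all 8 (S100a8, Elane and Csf3r). The list summed to 9703 and 7725 bp in 25HC then PAM3, 7927 and 9204 bp in PAM3, 8940 and 8522 bp in 25HC, and 9806 and 9583 bp in untreated cells. Of 6 fibroblast and endothelial markers, 2 were at 0 in all 8 (Col3a1 and Dcn) and 2 were called in all 8 (Pecam1 and Cdh5). Their sums were 12908 and 13525 bp in 25HC then PAM3, 12824 and 12324 bp in PAM3, 10751 and 12316 bp in 25HC, and 14990 and 13978 bp in untreated cells. Except for the mast cell and basophil list, these sums were lower in both PAM3 libraries than in both untreated ones, as 30.2% of single genes tested were. The macrophage sums overlapped, at 66563 and 91515 bp in PAM3 and 72142 and 61719 bp in untreated cells. Single markers did not all follow the sum of their list. Xcr1, a dendritic cell marker, had 5492 and 6359 bp in PAM3 and 4489 and 4531 bp in untreated cells. The share of such lists with lower sums in PAM3 was not counted. The part of other cell types in the members' values was not tested.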

How the data were processed

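Acetyl-H4 ChIP-seq was analysed in 8 libraries, 4 groups with mouse A and mouse B in each, per the labels. The submitters' processing notes name GSNAP, the build GRCm38 (mm10) and MACS2 2.1.0. For the control library, filters and calling thresholds, nothing was given in the sources used here. The deposited lists give the start and end of each peak, the authors' score, their fold ratio, and their −log10 p-value and −log10 q-value. They hold no read counts, so depth is unknown and counting error cannot be given. The deposited fold ratios followed the place in the list more than the peak: between the mice of a group, the same peak gave r of 0.103 to 0.190 for log fold, against 0.661 to 0.790 for log length, while adjacent peaks of 1 list gave 0.502 to 0.557 for log fold. They were therefore not used to describe strength.

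Called length was summed per gene window (RefSeq gene body on GRCm38.p6 with 5 kb on either side). Log2 of called bp plus 500 bp, less the median of each library, was modelled by limma 3.58.1 (R 4.3.3; trend, robust) for the 14589 genes with a mean of at least 500 bp, 4 groups in 1 fit, with Benjamini-Hochberg adjustment over all genes. The residual degrees of freedom were 4, with a median prior of 1.77. Where a group is at 0, the 500 bp set the size of the log2 value and the spread is understated, so an adjusted p can be too small. Same-letter libraries share a mouse, per the labels, and within-group deviations of such pairs had r of −0.0170 to 0.0304. The mouse as a block is an alternative.

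The members and gene lists, and the rule naming the 6 members, the genes most like them, listed pathway genes and neighbours, were chosen with earlier results of these data known. Map4k4, Slc9a4 and single regions were picked after their values were seen. Regions are peaks of the 8 libraries joined where they overlap. Listed starts and 300 bp promoters came from RefSeq, and IL-36 genes were matched by older symbols. Other settings for windows, pseudocount, filter, scaling and peaks, and fits without each library, were tried.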

Additional observations from a re-analysis of the deposited data

Results flagged for a closer look

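For 2 members the PAM3 comparison had opposite signs with and without 25HC in both mice, higher with it and lower without it, as did 6.94% of all genes tested; the difference between the comparisons was not tested for the members, since 1 of them had been used to choose a member. For Il1r1, 25HC then PAM3 minus 25HC was 2387 bp in mouse A and 3781 bp in mouse B, and PAM3 minus untreated was −4228 bp in mouse A and −337 bp in mouse B. For Il1rl2, 25HC then PAM3 minus 25HC was 2155 bp in mouse A and 2398 bp in mouse B, and PAM3 minus untreated was −2488 bp in mouse A and −3997 bp in mouse B. The other 4 members did not show opposite signs in both mice.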

How the results depend on the processing

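Of the members, 0 were called in either tested comparison with or without the replicate block. For 25HC then PAM3 against 25HC, the 733 genes called became 281 with the mouse as a replicate block, 360 without median subtraction, 389 with equal numbers of peaks by −log10 p, 1 with the 4 libraries of the comparison alone, and 0 with peaks of −log10 q of at least 5 (1516 at unadjusted p under 0.05). Leaving out 1 library gave 108 (without 25HC mouse B) to 814 (without PAM3 mouse A). The split of 398 higher and 335 lower became 161 and 395 without 25HC then PAM3 mouse A, and 112 and 214 without mouse B. For the average effect of 25HC, 10 genes called became 0 with the replicate block (1618 unadjusted), 44 in gene bodies alone, 19 with a pseudocount of 100 bp, and 0 with 10 kb margins (1824 unadjusted), −log10 q of at least 5 (1057), no median subtraction (1407) or equal numbers of peaks by −log10 p (1466); leaving out 1 library gave 0 to 240 (without PAM3 mouse A).

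In 25HC then PAM3 against 25HC, the sign turned for Il1r2 in the gene body alone (−0.31), without 25HC then PAM3 mouse A (−0.01) and without 25HC mouse A (−0.048); leaving out 1 library, its difference ran from −0.048 to 0.219. With −log10 q of at least 5 it turned for Il1rl1 (0.92), and in the average effect of 25HC for Il1rl1 (−1.42) and Il18r1 (−0.60). In 25HC against untreated cells, where the differences were near 0, single libraries left out turned the sign for Il1r1 (−0.10 without untreated mouse B, −0.09 without 25HC mouse B), Il1r2 (0.05 without 25HC mouse A), Il1rl1 (−0.04 without untreated mouse A, −0.01 without 25HC mouse A) and Il18rap (−0.18 without untreated mouse B). In the gene body alone the sign of that comparison turned for Il1rl2 (0.21), and with 10 kb margins for Il1r1 (−0.08) and Il1rl1 (−0.03). The −log10 q threshold uses the deposited −log10 q-values. Whether those follow the peak was not checked. The deposited fold ratios, which were checked, followed the place in the list more than the peak. With it, 6 regions of the cluster were called in both untreated libraries, 5 in both of 25HC then PAM3, and 3 in both untreated and neither PAM3 library. Of these 3, 0 were called in both libraries of 25HC then PAM3. The Pycard call was lost under it (limma adjusted p = 0.744) and with the 4 libraries alone (limma adjusted p = 0.0519). Keeping the longest peaks in equal number, an alternative chosen after seeing the data, gave 739 and 13 genes. The cause of these changes was not tested.

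With 2 mice per group and 4 residual degrees of freedom, a p above the threshold does not show that a member was alike in both groups. Called length has no depth behind it, and a wide peak that narrows counts like a peak that is lost.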
